A study of Mus musculus with 15 samples.

Results

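The genes described are 10 members of the Toll-like receptor system of mouse B cells. They are the receptors Tlr1, Tlr4, Tlr6, Tlr7 and Tlr9, the receptor-like protein Cd180 with its partner Ly86, and the kinases Irak2, Irak3 and Irak4. They were taken by gene symbol from the annotation in the deposited table of the second screen, where Cd180 stands under its older symbol Ly78, and they are measured by 18 of the 45037 probe sets that are not controls. In the second screen Tlr1, Irak2, Tlr6 and Tlr4 were lower and Irak3 was higher in memory than in naive cells, while Tlr7, Tlr9, Cd180 and Ly86 did not pass the test.

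Toll-like receptors bind microbial lipids, proteins and nucleic acids. Tlr1 and Tlr6 each pair with Tlr2 at the cell surface to read acylated lipoproteins, Tlr4 with its partner Ly96 (MD-2) reads lipopolysaccharide, and Tlr7 and Tlr9 read single-stranded RNA and unmethylated CpG DNA in endosomes. Most of these receptors pass their signal through the adaptor Myd88 to the kinase Irak4, which brings in Irak1 and Irak2 and, through Traf6, activates NF-kB. Irak3, also called IRAK-M, lacks normal kinase activity and restrains this signal; it is best known in monocytes and macrophages. B cells carry both surface and endosomal receptors and respond to their ligands by dividing and by making antibody.

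Expression was measured on oligonucleotide arrays in splenic B cells that bind the hapten NP, sorted from mice with mVh186.2, a transgene for an immunoglobulin heavy chain. The study compared memory with naive cells in 2 screens with 15 arrays in all. In the first screen the naive cells (arrays A, B and C) and the memory cells (arrays D, E, F and G) came from mVh186.2 transgenic mice. In the second screen the naive cells (arrays A, B, C and D) were AA4.1-negative and came from mVh186.2 transgenic Jk KO mice. The memory cells of the second screen (arrays EK, FG, HJ and I) arose from mVh186.2 Tg donor splenocytes given to AM14/Vk8R transgenic recipients. AA4.1 is a surface marker of immature B cells. The Jk deletion and the transfer each belong to only 1 group of the second screen, so the state of the cells, the genotype and the transfer cannot be told apart there. Ages are not given in the labels, and neither is whether the double letters of EK, FG and HJ stand for pooled animals. The labels call the replicates biological. The screens also differ in sorter and RNA labeling kit, and the method that gave the first screen's values is not stated. Levels are therefore compared only within a screen.

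Values are log2(intensity + 1) throughout, changes are memory minus naive on that scale, and errors of means are SD and of changes SE. The B cell markers Cd79a, Cd79b, Ms4a1, Cd22 and Blk were bright in every group, and none of them was called different in either screen. Ighg1 and Pdcd1lg2 were higher and Vpreb3 and Fcer2a lower in memory cells of both screens. Cd93, the gene of AA4.1, was 7.65 ± 0.42 in the AA4.1-negative naive cells of the second screen, above the filter on all 4 arrays. Memory cells there read 4.26 ± 0.41, below the filter (at least 7.56-fold lower, adjusted p 1.98e-05 by limma). A different probe set read Cd93 in the first screen. That probe set changed by 0.34 ± 0.38 and was not called, so the Cd93 changes are not compared between the screens. On the first screen's arrays, naive C and memory G stood apart: they correlated with each other at r = 0.901 across probe sets and with the other arrays at 0.87 to 0.892, against 0.902 to 0.932 among the others. Arrays of the second screen correlated at 0.988 to 0.998. Array medians were 103.4 to 153.7 intensity units in the first and 24.99 to 26.02 in the second screen; precision is limited by the small number of arrays.

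Promoter sequence in RefSeq (build GRCm38.p6) was found for 8 of the 10 genes, in 12 windows of 250 bases ending at an annotated transcript start. Tlr4 and Tlr7 had no entry. Windows of the genes with the largest changes in the second screen (Tlr1, Irak2 and Irak3) are shown together with Tlr6, which is the next protein-coding gene to Tlr1 in the annotation and was also lower in memory cells. Where a gene has several windows, the one with a motif match is shown, or else the one farther upstream. Each is written 5′ to 3′ on the gene's own strand, and capitals mark motif matches.
Tlr1, chr5:64933559-64933808, minus strand: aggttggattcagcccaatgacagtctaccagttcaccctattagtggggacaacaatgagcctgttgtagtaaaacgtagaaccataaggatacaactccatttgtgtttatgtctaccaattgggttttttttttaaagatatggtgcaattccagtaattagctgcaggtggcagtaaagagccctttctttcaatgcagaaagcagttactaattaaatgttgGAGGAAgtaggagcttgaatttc
Tlr6, chr5:64959167-64959416, minus strand: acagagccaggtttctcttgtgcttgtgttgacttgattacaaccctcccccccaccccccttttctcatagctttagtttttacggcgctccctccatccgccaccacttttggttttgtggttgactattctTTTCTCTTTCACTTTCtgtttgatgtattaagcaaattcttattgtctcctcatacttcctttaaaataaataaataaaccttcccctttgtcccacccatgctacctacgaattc
Irak2, chr6:113638217-113638466, plus strand: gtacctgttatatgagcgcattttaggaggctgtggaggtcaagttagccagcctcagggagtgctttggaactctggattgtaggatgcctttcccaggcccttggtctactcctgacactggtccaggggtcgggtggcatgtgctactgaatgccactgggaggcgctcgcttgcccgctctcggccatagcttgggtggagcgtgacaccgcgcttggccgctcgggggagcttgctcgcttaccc
Irak3, chr10:120202131-120202380, minus strand: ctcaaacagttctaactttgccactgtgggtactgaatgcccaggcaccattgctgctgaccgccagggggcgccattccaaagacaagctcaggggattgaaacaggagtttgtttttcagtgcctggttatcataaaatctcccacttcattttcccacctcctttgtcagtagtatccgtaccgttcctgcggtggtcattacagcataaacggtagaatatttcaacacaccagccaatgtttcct

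Motifs of 5 factors of B cell and innate gene control were searched on both strands of all 32851 windows of this length, with N for any base. The Tlr1 window holds GAGGAA, the core bound by PU.1 and related Ets factors, starting 23 bases before the transcript start; 23.3% of all windows hold this short motif. The Tlr6 window holds 2 overlapping matches, on the opposite strand, to the interferon-stimulated response element (GAAA, any 2 bases, GAAA), which 2.98% of all windows hold. The windows shown for Irak2 and Irak3 hold no match to these letters. The NF-kB motif (GGGA, any base, TT, any base, CC) was in none of the 12 windows and in 0.98% of all windows. A Tlr9 window held the PU.1 core together with an AP-1 match (TGANTCA, 6.75% of all windows) and an octamer (ATGCAAAT, 1.6% of all windows). A match is a stretch of letters and does not show that a factor binds.

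Probe sets were tested if they exceeded the screen-wide median on 3 or more arrays (first screen) or on 4 or more (second screen). In each screen 15 of the 18 probe sets passed, and every one of the 10 genes had at least 1 that did. In the second screen 7 of the 15 tested probe sets were called at an adjusted p under 0.05, 3 higher and 4 lower in memory cells. Of all 22638 probe sets tested there, 24% were called (9.61% higher and 14.4% lower). The same 7 probe sets were those whose naive and memory arrays did not overlap, which 27.5% of all tested probe sets showed (11.4% higher and 16.1% lower). In the first screen none of the 15 tested probe sets was called by limma, against 0.491% of all 23813 (0.407% higher and 0.084% lower), and 2 had an unadjusted p under 0.05, against 8.6% of all. Over these probe sets the median SE of a change was 0.21 (first screen) and 0.10 (second screen).

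**Figure D1:**
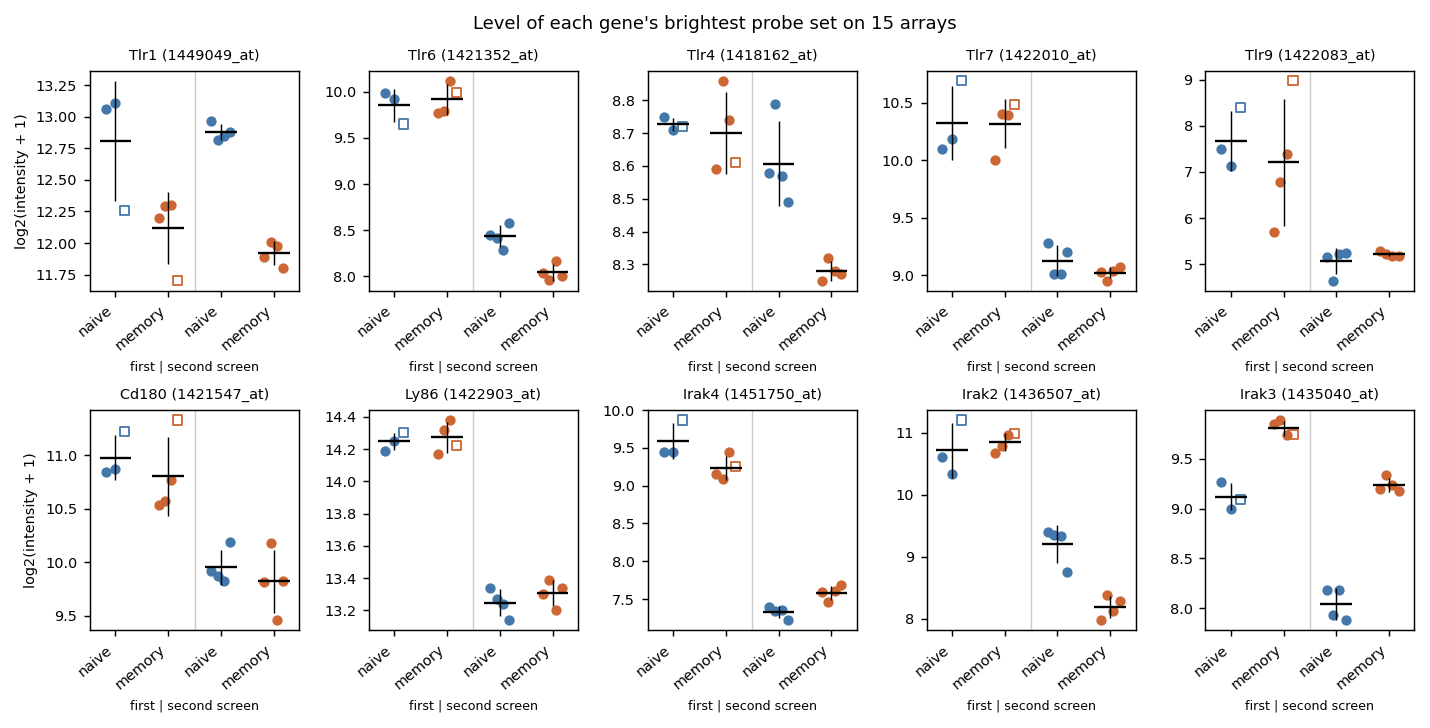
Level of the brightest probe set of each of the 10 genes on every array, as log2(intensity + 1), with the mean (horizontal bar) and SD (vertical bar) of each group; open squares are the first screen's arrays C and G, and each panel has its own axis. In the second screen the 4 memory arrays lie below all naive arrays for Tlr1, Tlr6, Tlr4 and Irak2 and above them for Irak3 and Irak4.

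Among the surface receptors Tlr1 showed the largest change in the second screen. Its level was 12.97, 12.82, 12.85 and 12.88 on naive arrays A to D, and 11.89, 12.01, 11.98 and 11.80 on memory arrays EK, FG, HJ and I. Every memory array lay below every naive array, and the spread within each group was small beside the gap. The mean fell from 12.88 ± 0.06 (SD, n = 4) to 11.92 ± 0.09 (n = 4), a change of -0.96 ± 0.06, or 1.94-fold, with an adjusted p of 6.19e-06 by limma.

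Tlr6, the neighbor of Tlr1 on chromosome 5 and the other partner of Tlr2, fell less. Naive arrays A to D read 8.45, 8.42, 8.29 and 8.58, and memory arrays EK, FG, HJ and I read 8.04, 7.96, 8.17 and 8.00. The lowest naive array stood just above the highest memory array. The change was -0.39 ± 0.08, or 1.31-fold, with an adjusted p of 0.00879 by limma. Tlr2 itself, measured by probe set 1419132_at, differed by 0.28 ± 0.14 with an adjusted p of 0.174 and was not called, although it was called higher when naive D was left out.

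Tlr4 was measured by 4 probe sets, of which 1 (1418162_at) was tested in the second screen. It read 8.58, 8.79, 8.57 and 8.49 on naive arrays A to D and 8.25, 8.32, 8.28 and 8.27 on memory arrays EK, FG, HJ and I. All memory arrays were lower and lay within a narrow range. The change was -0.33 ± 0.08, or 1.25-fold, with an adjusted p of 0.014 by limma. A probe set from the same transcript sequence, 1418163_at, stayed at 4.34 to 4.76 on all 8 arrays and did not pass the filter, and neither did 1442827_at or 1430695_at. Ly96, the protein that binds lipopolysaccharide with Tlr4, differed by -0.02 ± 0.18 and was not called.

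The endosomal receptors did not pass the test in either screen. Tlr7 was read by 3 probe sets, whose changes in the second screen were -0.10 ± 0.08 for 1422010_at, 0.20 ± 0.10 for 1419848_x_at and 0.28 ± 0.13 for 1449640_at, with adjusted p of 0.389, 0.184 and 0.159 by limma. The last 2 come from the same sequence and the 3 did not share a direction. Their naive and memory arrays overlapped in each case. On its brightest probe set, Tlr7 read 9.28, 9.01, 9.01 and 9.20 on the naive arrays and 9.03, 8.95, 9.04 and 9.07 on the memory arrays, and the 95% interval of the change ran from -0.27 to 0.07.

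Tlr9 stood close to the filter in the second screen, at 5.15, 4.64, 5.22 and 5.24 on naive arrays A to D and 5.28, 5.23, 5.18 and 5.18 on memory arrays EK, FG, HJ and I. The groups overlapped, and naive B was the low array. The change was 0.15 ± 0.13 with an interval from -0.14 to 0.44. In the first screen Tlr9 spread widely within each group, from 7.13 to 8.39 in naive and from 5.69 to 8.98 in memory cells, with the highest value of each group on arrays C and G. The change there was -0.46 ± 0.71, and its interval from -2.07 to 1.14 leaves a large difference either way undetectable on these arrays.

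Cd180, a receptor-like protein that modulates lipopolysaccharide responses of B cells, and Ly86 (MD-1), the secreted partner it needs at the surface, were not called in either screen. Cd180 read 9.92, 9.87, 9.83 and 10.19 on the naive arrays and 9.82, 10.18, 9.46 and 9.83 on the memory arrays of the second screen. The groups overlapped, with 1 high array in each. Its change was -0.13 ± 0.14 (interval -0.45 to 0.19). Ly86 varied little from array to array, between 13.14 and 13.39 in the second and between 14.17 and 14.38 in the first screen. Its changes of 0.06 ± 0.06 and 0.02 ± 0.10 had intervals from -0.07 to 0.20 and from -0.20 to 0.24.

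Of the kinases, Irak3 showed the largest rise in the second screen. Probe set 1435040_at read 8.18, 7.93, 8.18 and 7.88 on naive arrays A to D and 9.20, 9.34, 9.24 and 9.18 on memory arrays EK, FG, HJ and I. The lowest memory array stood about 1 log2 unit above the highest naive array. The mean rose from 8.04 ± 0.16 to 9.24 ± 0.07 (n = 4 each), by 1.20 ± 0.09 or 2.29-fold, with an adjusted p of 2.19e-05 by limma. The dimmer probe set 1430704_at read 5.56, 5.32, 5.38 and 5.89 against 6.29, 6.17, 5.99 and 6.30, and also rose, by 0.65 ± 0.13 with an adjusted p of 0.00787 by limma. Both probe sets of the gene thus had all memory arrays above all naive arrays.

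Irak2, which carries the signal on from Irak4 and sustains it, moved the opposite way to Irak3 in the second screen. It read 9.40, 9.35, 9.33 and 8.75 on naive arrays A to D and 7.98, 8.39, 8.12 and 8.29 on memory arrays EK, FG, HJ and I. The memory arrays were all lower, and naive D lay between the other naive arrays and the memory arrays. The mean fell from 9.21 ± 0.31 to 8.20 ± 0.18 (n = 4 each), a change of -1.01 ± 0.15 or 2.01-fold, with an adjusted p of 0.00151 by limma. Without naive D the change was -1.16 with an adjusted p of 0.000148.

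Irak4, the first kinase to join the receptor complex, was called only on 1 of its 3 tested probe sets in the second screen, and that call was not stable. Probe set 1451750_at read 7.39, 7.34, 7.36 and 7.22 on the naive arrays and 7.59, 7.46, 7.61 and 7.68 on the memory arrays. The groups did not overlap, but the gap between them was small. The change was 0.26 ± 0.08 with an adjusted p of 0.0419 by limma, and it was called under 8 of 18 alternative settings, among them 1 of the 8 fits that left out an array. Probe set 1451749_at, from the same sequence, changed by -0.10 ± 0.14 and 1421670_a_at by -0.07 ± 0.15, and neither was called. Irak1, the other kinase that Irak4 activates, changed by 0.04 ± 0.06 and was not called.

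**Figure D2:**
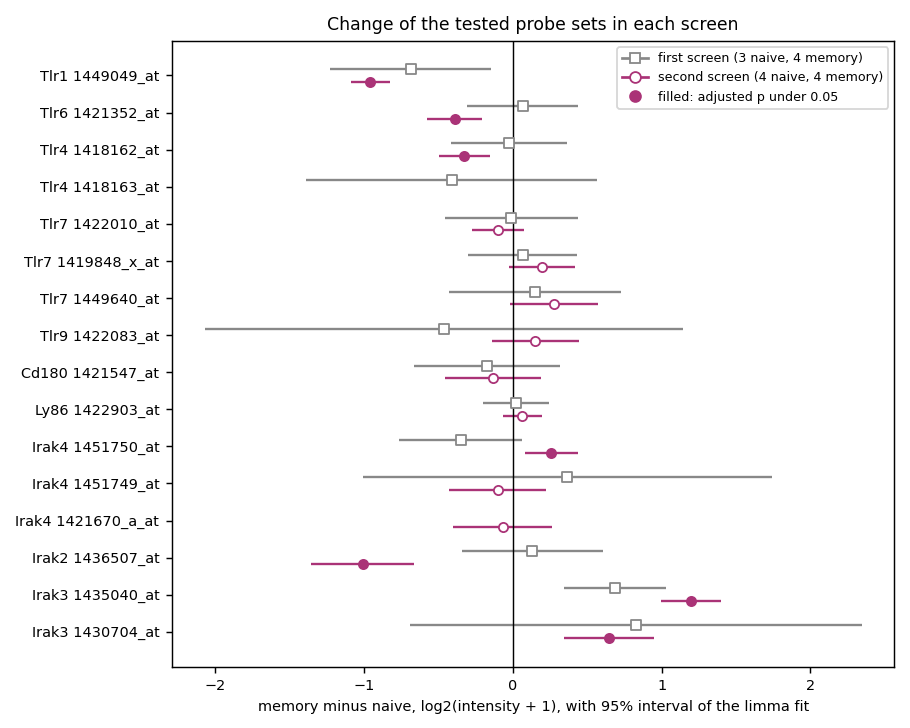
Change from naive to memory cells on the log2(intensity + 1) scale with its 95% interval for each tested probe set, in the first (squares) and second (circles) screen; filled symbols have an adjusted p under 0.05. Filled symbols occur only in the second screen, on the lower side for Tlr1, Tlr6, Tlr4 and Irak2 and on the higher side for Irak4 and both Irak3 probe sets.

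The markers of myeloid cells, in which Irak3 is best known, are given beside its rise. In bulk RNA, more cells of a type and more RNA per cell cannot be told apart. Of 10 myeloid markers, 8 were tested in the second screen, and 1 was called, Cd68, which rose by 0.89 ± 0.20 with an adjusted p of 0.011 by limma. S100a8 differed by 1.52 ± 0.55 with an adjusted p of 0.0783, Lyz2 by 0.01 ± 0.45, and Itgam and Cd14 lay below the filter, with Cd14 between 2.62 and 2.69 on all arrays. S100a9 differed by 1.58 ± 0.56 (adjusted p 0.0712 by limma). Csf1r, Adgre1, Fcgr1 and Csf3r differed by 0.22, 0.14, -0.02 and 0.19, and none of them was called. The summed intensity of the 10 markers ran from 1592 to 8714 on naive arrays (median 2590). On memory arrays it ran from 4113 to 8297 (median 7334), and none of the 10 was at 0. This linear sum weighs the brightest markers most, which in memory cells were S100a8 (11.38 ± 0.55) and S100a9 (11.24 ± 0.58).

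Naive D had the highest myeloid sum of the second screen. The myeloid markers differed in how they ran beside Irak3. S100a8 read 9.25, 9.70, 8.83 and 11.64 on naive arrays A to D and 10.58, 11.68, 11.81 and 11.42 on memory arrays EK, FG, HJ and I, so naive D lay within the memory range. Cd68 read 6.21, 6.60, 6.28 and 6.99 on the naive and 7.82, 7.35, 7.12 and 7.37 on the memory arrays, so all memory arrays lay above naive D, as they did for Irak3. Naive D had the lowest Irak3 level of the 8 arrays on 1435040_at, 7.88. On the dimmer 1430704_at naive D was instead the highest naive array, at 5.89 against 5.56, 5.32 and 5.38, and lay below every memory array. The part of myeloid RNA in the Irak3 level was not tested. Without naive D, 4 of the 8 myeloid markers were called higher (Cd68, Csf1r, S100a8 and S100a9), and the Irak3 change was 1.14 with an adjusted p of 6.51e-05.

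**Figure D3:**
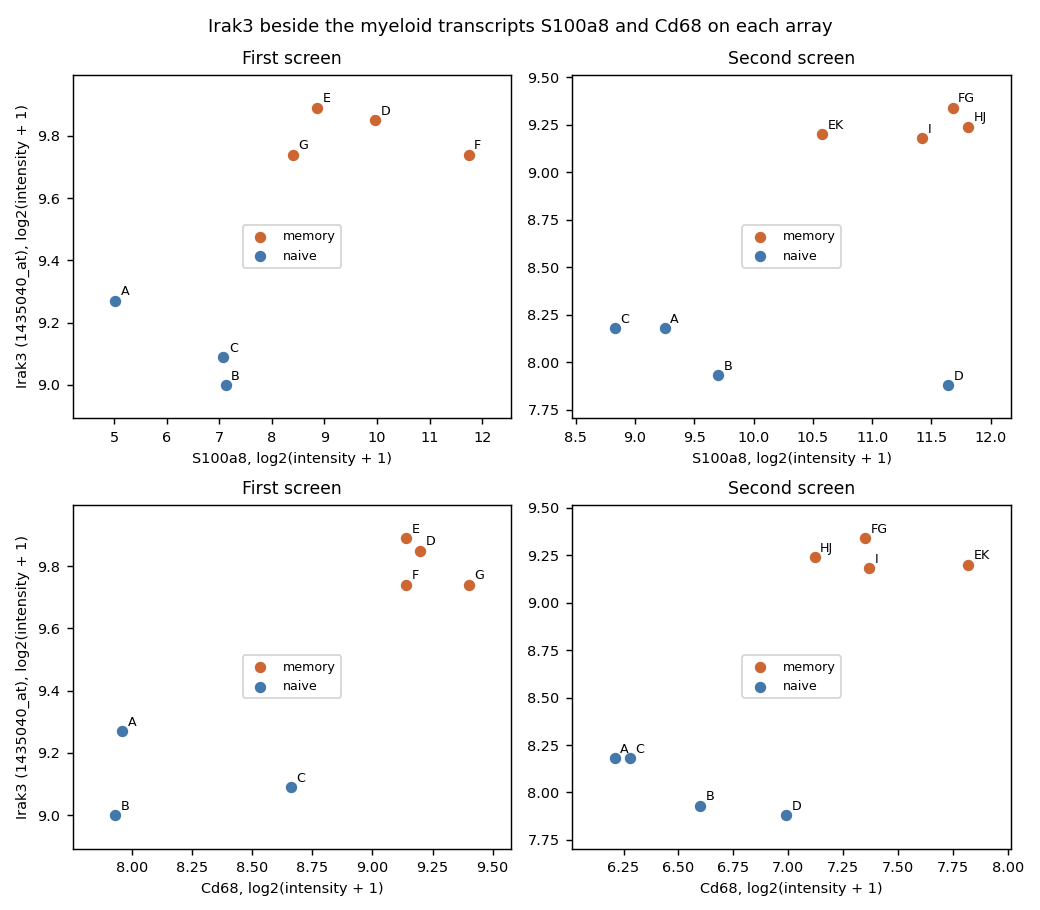
Irak3 (1435040_at) against the myeloid transcripts S100a8 (upper panels) and Cd68 (lower panels) on each array, all as log2(intensity + 1), with array letters and a column for each screen. In the second screen naive D lies within the memory range for S100a8 (11.64) and below every memory array for Cd68 (6.99) and Irak3 (7.88).

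Some markers of other cell types and B cell subsets differed between the groups too. Of 6 marginal zone B cell genes, 5 were lower in memory cells of the second screen (Cd9, S1pr3, Cr2, Cd1d1 and Dtx1), where the summed level was 26190 to 27110 on naive and 14970 to 18880 on memory arrays. None of the 6 was called by limma over all 7 arrays of the first screen, where the sums were 42450 to 44310 and 29790 to 38150. Without arrays C and G, Cd1d1 was called lower there (-0.76, adjusted p 0.0154 by limma), and with the pair as a block none was called. T cell markers were lower for 3 of 5 tested genes and NK cell markers for 2 of 2 in the second screen, with sums of 299.5 to 537.7 against 204.8 to 267.0 for T cells and of 114.3 to 186.5 against 72.49 to 79.6 for NK cells. Cd5 and Nkg7 lay below the filter on all 4 memory arrays and Cd3g on 3, so these were kept through their naive arrays and the filter favored a lower call. Flt3 of the dendritic cell list was lower by 0.56 ± 0.13 (adjusted p 0.0146 by limma). Zbtb46, the only other tested gene of that list in the second screen, changed by -0.10 ± 0.14 and was not called. Of the antibody-secreting cell markers, Jchain was called in both screens, rising by 3.46 ± 0.33 in the first (adjusted p 0.00275) and by 3.36 ± 0.42 in the second (adjusted p 0.000456), and the others were not called. The summed level of that list was 8542 to 10850 on naive and 20190 to 25180 on memory arrays of the first screen, and 4197 to 6626 and 13560 to 15290 in the second. In the second screen Xbp1, Prdm1, Sdc1 and Fkbp11 changed by 0.08, 0.10, 0.06 and -0.00, so the sum rose there with Jchain. In the first screen Xbp1 changed by -0.05 ± 0.11, Prdm1 by 0.41 ± 0.29 and Fkbp11 by 1.23 ± 0.23. Fkbp11 was called higher there with C and G as a block (adjusted p 0.0052 by limma) and without them (0.0145). The part of these cells in the levels of Tlr1, Tlr6, Tlr4, Irak2 and Irak3 was not tested.

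In the first screen no probe set was called, and whether Tlr1 and Irak3 passed the threshold depended on the handling of arrays C and G. Tlr1 read 13.06, 13.11 and 12.26 on naive arrays A to C and 12.20, 12.29, 12.30 and 11.70 on memory arrays D to G. Arrays C and G were the lowest of their groups, and C lay among the memory arrays. The change over all 7 arrays was -0.69 ± 0.24 (unadjusted p 0.0187, adjusted p 0.418 by limma). With C and G as a block of their own it was -0.74 ± 0.09 with an adjusted p of 0.00212 by limma. Without the pair it was -0.82 ± 0.09 with an adjusted p of 0.00113. Within the pair, G lay 0.56 below C.

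Irak3 (1435040_at) read 9.27, 9.0 and 9.09 on naive arrays A to C and 9.85, 9.89, 9.74 and 9.74 on memory arrays D to G, so that all memory arrays were higher. It was the only one of the 15 tested without overlap, which 10.3% of all probe sets of that screen showed (6.19% with memory higher and 4.13% with memory lower). The change was 0.69 ± 0.15, or 1.61-fold (unadjusted p 0.00157, adjusted p 0.143 by limma). It was 0.68 ± 0.13 with the pair as a block (adjusted p 0.0228) and 0.69 ± 0.15 without it (adjusted p 0.0288). Those fits called 3.59% and 4.93% of all probe sets, and Tlr1 and Irak3 were the only 2 of the 15 tested probe sets that either fit called. The same 2 were called with array weights and in a fit of all 15 arrays, which called 4.33% and 5.01% of all.

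The myeloid sum in the first screen was 2241 to 3609 on naive and 4420 to 10460 on memory arrays, which did not overlap. None of the 8 tested myeloid markers was called over all 7 arrays, while Lyz2, Cd68, S100a8 and S100a9 were called higher with C and G as a block and without them. The other tested markers, Csf1r, Adgre1, Fcgr1 and Csf3r, changed by 0.23, 0.0, -0.29 and -0.03 over all 7 arrays. None of them was called under these settings. S100a8 spread widely over the memory arrays, from 8.40 to 11.74, and Cd68 little, from 9.14 to 9.40 against 7.93 to 8.66 on naive arrays. Both markers and Irak3 had every memory array above every naive array in this screen.

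The other genes showed no call in the first screen under any setting tried. Irak2 read 10.62, 10.34 and 11.21 on the naive and 10.68, 10.79, 10.96 and 10.99 on the memory arrays, with overlap and a change of 0.13 ± 0.21. Tlr6 changed by 0.06 ± 0.16, Tlr4 (1418162_at) by -0.02 ± 0.17 and Irak4 (1451750_at) by -0.35 ± 0.18. After Tlr9, the dimmer probe sets of 2 kinases had the largest SE: Irak3 1430704_at changed by 0.82 ± 0.67 and Irak4 1451749_at by 0.37 ± 0.60. Array C was the highest naive array on 13 of the 18 probe sets and array G the highest memory array on 10. These counts include probe sets that did not pass the filter. The share over all probe sets is not given, so the counts are not read as a trait of these genes.

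Whether a change differed between the screens was tested on the 14 probe sets kept in both. None was called after adjustment by a t test on the difference of the 2 limma changes, against 0.556% of all 19781. Irak2 came closest: its change in the second screen was lower than in the first by 1.14 ± 0.26 (95% interval -1.69 to -0.59 for second minus first), with an unadjusted p of 0.000452 and an adjusted p of 0.0657. This call depended on the setting: the difference was -1.18 ± 0.21 where C and G formed a block of their own (adjusted p 0.00386) and -1.34 ± 0.20 where both were left out (adjusted p 0.000806), and it was called under 6 of 27 alternatives, with adjusted p from 0.000112 to 0.304. Next by p-value came Irak4 (1451750_at) with a difference of 0.61 ± 0.20, Irak3 (1435040_at) with 0.51 ± 0.18 and Tlr6 with -0.46 ± 0.18. Their adjusted p ran from 0.301 to 0.452 by the same t test. Tlr1 changed by -0.69 and -0.96, and the difference of -0.27 ± 0.24 had an interval from -0.82 to 0.28. The differences in sorting, labeling kit, genotype and transfer between the screens cannot be told apart from one another. Processing of the intensities may differ as well. The second screen's values were made with GCRMA, and no method is given for the first. The part of processing in these differences of change was not tested.

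Other genes of the pathway were counted by their brightest tested probe set, beside 28.3% of all genes called in the second screen (11.1% higher and 17.3% lower) and 0.667% in the first. Their lists, like the 10 genes, were chosen with earlier results known. Of the 10 genes themselves, 2 were higher and 4 lower in the second screen, with a median change of -0.12 against -0.03 over all genes. Receptors outside the 10 gave 1 call among 3 tested genes: Tlr3, which senses double-stranded RNA and is high in marginal zone B cells, fell by 0.59 ± 0.15 with an adjusted p of 0.0172 by limma. None of 4 was called in the first screen, where Tlr3 changed by -0.28 ± 0.18 and Tlr13 by 0.26 ± 0.49.

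Of 9 tested cofactors and trafficking proteins, 2 were lower and none higher in the second screen. Cd36, a scavenger receptor that hands lipids to the Tlr2 and Tlr6 pair and is also high in marginal zone B cells, went from 10.03 ± 0.29 to 4.82 ± 0.48, a change of -5.21 ± 0.24 with an adjusted p of 1.32e-06 by limma; the memory level lay at the filter of 4.73, with 1 of 4 arrays below it. Lgmn, a lysosomal protease that can cleave Tlr9, fell by 1.72 ± 0.18 in the second screen and by 1.20 ± 0.13 in the first, where it was the only called gene of the list (adjusted p 0.00483 by limma). Unc93b1, the chaperone that brings Tlr7 and Tlr9 to endosomes, changed by -0.15 ± 0.10 in the second screen and was not called. With the marginal zone genes lower as well, their part in the Cd36 and Tlr3 levels was not tested.

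Among 4 tested adaptors in the second screen, Pik3ap1 (BCAP), which links B cell and Toll-like receptors to phosphoinositide 3-kinase, was the only call, with a change of -0.98 ± 0.08 and an adjusted p of 3.08e-05 by limma. Myd88 changed by -0.06 ± 0.11. Pik3ap1 changed by -0.39 ± 0.12 in the first screen with an adjusted p of 0.367 and Sarm1 by 0.95 ± 0.62, and none of 5 was called there.

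Of 17 tested kinases and ubiquitin ligases downstream, 2 were higher and 4 lower in the second screen. Tifa, an adaptor of Traf6, was 6.28 ± 0.34 in naive and 2.78 ± 0.13 in memory cells, with an adjusted p of 1.15e-06 by limma. All 4 memory arrays lay below the filter of 4.73 and the probe set was kept through its naive arrays, so only a bound is given: Tifa was at least 2.93-fold lower, taking memory cells at the filter. It was also the only call of the list in the first screen (8.50 ± 0.78 against 4.64 ± 0.39, adjusted p 0.0309 by limma), where again no memory array passed the filter (6.98) and the bound was at least 2.88-fold lower. The NF-kB kinase subunit Ikbkb rose by 0.42 ± 0.06, and the ubiquitin ligase Peli1, which acts on Irak1, fell by 0.44 ± 0.07. Tab2, which joins Traf6 to the kinase Map3k7, fell by 0.28 ± 0.06. The median of the list was -0.05.

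Of 9 NF-kB and IRF transcription factors, 5 were lower and none higher in the second screen, with a median change of -0.42. Rel, the NF-kB subunit c-Rel, fell by 1.16 ± 0.11, Irf7, which drives interferon genes after Tlr7 and Tlr9, by 2.07 ± 0.22, and Irf8 by 0.99 ± 0.11. Relb of the noncanonical NF-kB pathway fell by 0.63 ± 0.09. None of 9 was called by limma in the first screen, where Irf8 changed by -0.47 ± 0.20 (adjusted p 0.566) and Rel by -0.46 ± 0.23 (adjusted p 0.651).

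Of 14 genes listed as negative regulators, other than Irak3, and tested in the second screen, 1 was higher and 7 were lower, with a median of -0.21. Without naive D, Sigirr was not called (-0.18, adjusted p 0.0762 by limma) and 6 were lower. The list also holds the IkB family genes Bcl3 and Nfkbiz, so the count is not one of inhibitors only. Several of the listed genes are themselves NF-kB targets. Bcl3, a nuclear IkB protein, fell by 1.42 ± 0.10, Nfkbie, which holds c-Rel in the cytoplasm, by 0.89 ± 0.08, Tnfaip3 (A20), which trims ubiquitin chains in the pathway, by 0.68 ± 0.08, and Nfkbiz by 0.45 ± 0.06. The gene that rose besides Irak3 was Socs1, an inhibitor of cytokine signaling, by 0.91 ± 0.16 with an adjusted p of 0.00286 by limma. None of 14 was called in the first screen, with Bcl3 at -1.14 ± 0.22 (adjusted p 0.0887) and Nfkbib at 0.34 ± 0.13 (adjusted p 0.459).

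Genes that Toll-like receptor ligands induce in B cells went in both directions. Of 9 tested in the second screen, 2 were higher and 3 lower, with a median of -0.03. The costimulatory ligand Cd80 rose by 1.59 ± 0.14 and Myc by 0.68 ± 0.13, while the activation marker Cd83 fell by 1.27 ± 0.09 and Bcl2a1a, whose probe set may also read its near-identical copies, by 0.37 ± 0.08. The first screen gave no call among 10, with Cd80 at 1.21 ± 0.31 (adjusted p 0.217) and Cd86 at 0.67 ± 0.18 (adjusted p 0.233). Of the interleukin-1 receptor family, which signals through the same kinases, most genes lay below the filter, and Il1rap changed by 0.18 ± 0.24 and 0.09 ± 0.10 in the first and second screen and Il1r2 by -0.11 ± 0.08 in the second.

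**Figure D4:**
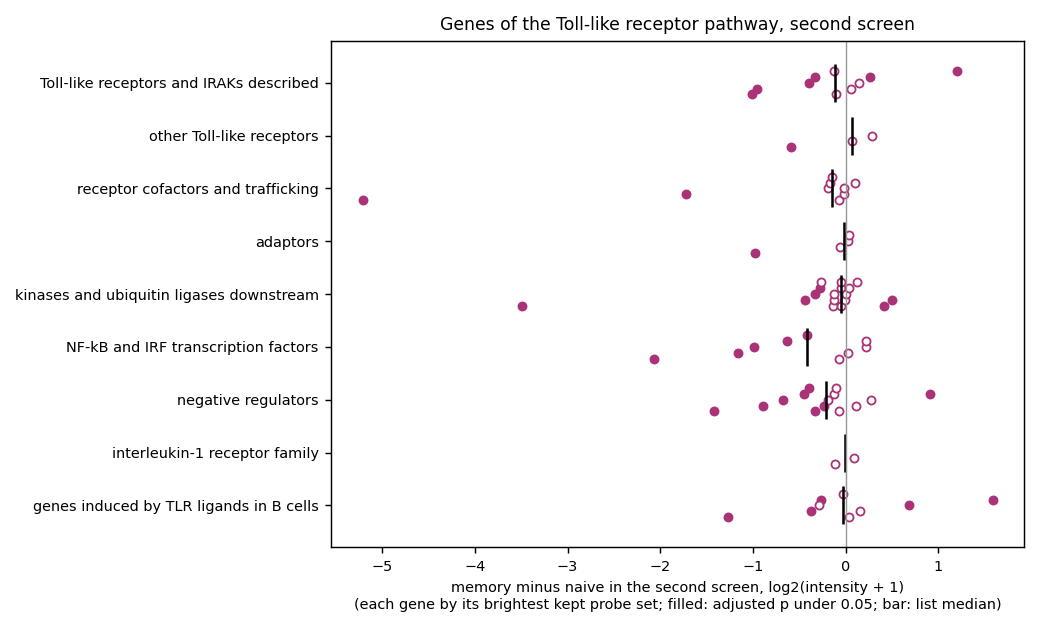
Change from naive to memory cells in the second screen, on the log2(intensity + 1) scale, of each tested gene of the Toll-like receptor lists, 1 point per gene (filled where the adjusted p is under 0.05) with the list median as a bar. NF-kB and IRF factors have the lowest median, -0.42. The farthest points, Cd36 and Tifa, have memory levels at and below the filter, so their plotted sizes are limited by it and are not exact.

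The list counts of the first screen changed when C and G were handled apart. With the pair as a block, the calls were Unc93b1, Lgmn and Cd36 among cofactors, Pik3ap1, Tifa and Bcl3, all lower, and of the induced genes Cd80 and Cd86 higher and Cd83 lower. Without C and G, Unc93b1 was not called (-0.40, adjusted p 0.0724), Tab1 (-1.01, adjusted p 0.0304) and Nfkbie (-0.39, adjusted p 0.0414) were called lower, and the other calls were the same. With the block, the change of Cd36 was -2.17 with an adjusted p of 0.000553, that of Bcl3 -1.18 with 0.00105 and that of Pik3ap1 -0.41 with 0.0341.

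The genes most like Tlr1 and Irak3 in pattern were sought by the mean of the Pearson correlations within the 2 screens (7 and 8 arrays), given as a description. For Tlr1 they were Smchd1 (mean r 0.978), Tmem131l (0.973) and Armcx2 (0.973), which changed by -0.62, -0.63 and -1.0 in the second screen. For Irak3 (1435040_at) they were Slc7a1, a transporter of cationic amino acids (mean r 0.988), the stress kinase Mapk12 (0.986) and Itpr1, a calcium channel of the endoplasmic reticulum (0.984), which changed by 0.75, 2.64 and 1.27. Arrays of a group share their cell state, so any gene that separates the groups well scores high by this measure.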

How the data were processed

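Total RNA of each sample was labeled with biotin and read on 1 array. The deposited values are intensities on a linear scale; those of the second screen were made with GCRMA, per the submitters' processing notes, while for the first screen no summary method is given there. Alongside, the deposited tables hold the authors' pooled columns, ratio and p-value of memory against naive cells, and none of these 3 was used.

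Of 45101 probe sets, 64 controls were left out, and symbols were brought to current names with RefSeq's synonyms. All values were analysed on the log2(intensity + 1) scale. Probe sets were kept if above log2 6.98 on at least 3 arrays of the first screen or above 4.73 on at least 4 of the second. Each screen was fitted with limma 3.58.1 in R 4.3.3 (lmFit and eBayes with an intensity trend), with Benjamini-Hochberg adjustment over all kept probe sets and a threshold of 0.05. The difference between screens was that of the separate fits. It was divided by the root of their summed squared SE and tested by t. The degrees of freedom were combined from both fits by Satterthwaite's formula, with Benjamini-Hochberg adjustment over the probe sets kept in both screens. A gene in a list was counted by its brightest kept probe set with that adjusted p. For some genes, among them Cd93, Fkbp11, Lyz2, Csf1r and Cd1d1, this probe set differed between the screens. The fits were tested on simulated data. Python 3.11.15, NumPy 2.4.6, pandas 2.3.3 and Matplotlib 3.10.9 were used.

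The 10 genes, the lists, the tests and the treatment of naive C and memory G were chosen with earlier results of these data known. Named are all 10 genes, and of each list up to 4 called genes by adjusted p, or the 2 uncalled with the smallest p. Socs1 and uncalled partners of the 10 genes (Tlr2, Ly96, Unc93b1, Myd88 and Irak1) were added after their values were seen. Alternatives were other filters, a pseudocount of 16, median centring, quantile normalization, 1 probe set per gene, other eBayes settings, array weights, 1 fit of 15 arrays, arrays C and G blocked or left out, and each array left out in turn. List counts without those arrays, or without naive D of the second screen, were added after seeing the data. Another B cell marker of the list is not reported here.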

Additional observations from a re-analysis of the deposited data

Results flagged for a closer look

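With 4 arrays a group, the gap between an end array and its nearest neighbor exceeded Dixon's critical share of the group's range in 5 of the 54 groups of 4 tested (18 probe sets in 3 groups). Chance gives about 1 in 20. In memory cells of the first screen, array G was apart for Tlr1, at 11.7 against 12.2 to 12.3, and for Irak3 1430704_at, at 8.79 against 6.70 to 7.02. In naive cells of the second screen, Tlr9 was 4.64 on array B against 5.15 to 5.24, Irak2 was 8.75 on array D against 9.33 to 9.40, and Irak4 1421670_a_at was 5.89 on array C against 5.46 to 5.50.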

How the results depend on the processing

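The calls of Tlr1, Tlr6, Tlr4 (1418162_at), Irak2 and Irak3 (1435040_at) in the second screen held under all 18 alternatives run for each. Irak3 1430704_at was lost only in the fit of 15 arrays (adjusted p 0.535), Irak4 1451750_at in 10 of 18, and Tlr7 1449640_at was called without memory FG (0.38, adjusted p 0.0467). Leaving out an array gave 6 to 8 called probe sets of the 10 genes and 4030 to 5812 over all in the second screen, where the fit of 15 arrays called 2241 over all. In the first screen 2 probe sets of the 10 genes (Tlr1 and Irak3) were called with array weights, the fit of 15 arrays, arrays C and G as a block, and without both, and 0 in every fit without 1 array. The calls over all probe sets were then 1032, 991, 856 and 1173, against 117, with 63 under median centring and 45 to 136 without 1 array. For the difference between screens, Irak2 was the 1 call with 1 probe set per gene, array weights, the block and without both arrays, and 0 to 1 was called without 1 array (1 without naive C of the first or naive D of the second screen). The cause of these changes was not tested. Median centring moved the median change of the first screen by -0.19.

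Uncalled changes of the first screen that changed sign were those of Tlr4 1418162_at (0.02 with array weights, 0.00 without C and G, -0.08 to 0.01 without 1 array), Tlr6 (-0.13 with median centring, -0.07 with array weights, -0.06 without C and G, -0.04 to 0.13 without 1 array) and Tlr7 1422010_at (0.02 with quantile normalization, 0.11 with array weights, 0.02 with the block, 0.12 without C and G, -0.12 to 0.17 without 1 array). With median centring the change was also -0.13 for Tlr7 1419848_x_at, -0.04 for Tlr7 1449640_at, -0.17 for Ly86 and -0.06 for Irak2. Without 1 array it ran from -0.02 to 0.30 for Tlr7 1449640_at, from -1.06 to 0.04 for Tlr9, from -0.01 to 0.06 for Ly86, from -0.06 to 0.37 for Irak2, from -0.11 to 0.88 for Irak4 1451749_at and, in the second screen, from -0.19 to 0.03 for Irak4 1421670_a_at. No paired analysis was possible because the groups compared within a screen share no array letters.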
